A study of Mus musculus with 7 samples.

Results

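Alveolar macrophages from mouse lung were compared between wild type and a conditional deletion of the ubiquitin ligases Siah1a and Siah2, with both Siah-deleted lines pooled. The control group was labelled WT (n = 3 libraries). The deleted group (n = 4 libraries) held 3 libraries with floxed alleles of both genes and Cre expressed from Lyz2, the lysozyme M gene active in myeloid cells (genotype cSiah1a/2f/f::Lyz2cre), and 1 library with the same alleles and Cre driven by the promoter of Itgax, the gene for CD11c (cSiah1a/2f/f::CD11ccre). The WT labels add that the cells were positive for CD11c, F4/80 and SiglecF, which the labels of the deleted libraries do not state. The labels do not say whether WT animals carried Cre or floxed alleles, give neither age nor strain, and do not say that libraries came from separate animals, so a p-value here speaks of the spread among libraries, which may be technical. The values were TPM, a gene's length-scaled share of its library's transcripts. TPM keep no record of sequencing depth, which is therefore unknown. Genes entered the description when their mean TPM over the 7 libraries reached 5, with Lyz2 itself and predicted gene models left out, which gave 8216 of 47643 genes, 8054 of them protein-coding. Ascc3 and Samd9l lay just inside that limit at a mean of 5.001 TPM, and Rbak and B3gnt2 just outside at 4.996 TPM. Where single values are listed, the deleted libraries stand in the order Lyz2cre replicates 1 to 3, then CD11ccre, and a range runs from the lowest to the highest library of a group, WT first.

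Siah1a and Siah2 are RING-type E3 ubiquitin ligases that mark bound proteins for degradation by the proteasome, and are best known for acting on prolyl hydroxylases of the oxygen-sensing pathway and on nuclear co-repressors such as Ncor1. Alveolar macrophages take up surfactant, inhaled particles and dying cells, degrade them in lysosomes, recycle iron and lipid, and depend on GM-CSF signalling and the lipid-sensing receptor Pparg for their identity. Proteins that a ligase degrades need not change at the RNA level.

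The libraries carried the RNA of the labelled cell type. All 14 alveolar macrophage markers listed (among them Siglecf, Itgax, Adgre1, Marco, Car4, Chil3 and Pparg) passed the limit of 5 TPM. Markers of T and NK cells summed to 3.73–15.2 TPM in WT and 0.76–3.71 TPM in the deleted libraries, and 8 of 9 eosinophil, basophil and mast cell markers were listed at 0 in every library. Summed markers of other cells, in WT against deleted libraries, were 54.8–107 and 125–168 TPM for neutrophils (Ly6g, Camp, Ngp and Elane at 0 throughout), 42.8–72.4 and 99.9–149 TPM for endothelium, 60.2–74.9 and 104–128 TPM for type 1 cells, and 141–167 and 83.9–114 TPM for type 2 cells. They were 389–556 and 160.3–388 TPM for airway cells and 192–224 and 117–199.7 TPM for monocytes. Their part in the results below was not tested. S100a8, with values given under Other observations, made up much of the neutrophil sum in the deleted libraries. On the neutrophil list S100a8 and Mmp8 were called higher and S100a9 and Csf3r lower, and the median of these 4 members was -0.21. Pdpn and Vwf were higher on the type 1 cell and endothelial lists, and Lyz1, Napsa and Tppp3 were lower on the type 2 and airway lists. Of these calls, those of S100a8 and Lyz1 held as defined below. Lyz2, left out of the members, had 77.6, 72.6 and 86.2 TPM in the WT libraries, 46.6, 61.9 and 55.7 TPM in the 3 Lyz2cre libraries and 50676 TPM in CD11ccre, where it took 5.07% of all TPM. In bulk RNA, fewer cells of a type and less RNA per cell cannot be told apart.

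The deleted genes were checked first. Siah1a (chr8:86724007-86745934, mm10) was listed at 16.6, 6.72 and 13.3 TPM in the WT libraries and 0, 0, 0.05 and 0 TPM in the deleted libraries. The groups did not overlap, and 3 of the 4 deleted libraries were at 0 (log2 fold change -3.62, SE 0.33, limma adjusted p = 0.000555). Siah2 (chr3:58674938-58692400) was at 13.6, 12.7 and 17.3 TPM in the WT libraries and 1.95, 1.45, 1.5 and 1.21 TPM in the deleted libraries, 9.51-fold lower by the means, with every deleted library below every WT library (log2 fold change -2.62, SE 0.21, limma adjusted p = 0.000291). For each gene, the exact permutation test on mean TPM gave a two-sided p = 0.0571, the smallest that 4 against 3 libraries allow. TPM are given per gene and do not show which exons the remaining Siah2 reads came from. The paralogue Siah1b was at 1.77, 1.28 and 0.9 TPM in the WT libraries and 1.05, 2.08, 0.81 and 1.18 TPM in the deleted libraries, and its groups overlapped (-0.04 on the log2 scale, exact permutation p = 0.971, two-sided). Itgax, whose regulatory region drives CD11ccre, was at 387, 327 and 373 TPM in the WT libraries and 434, 421, 431 and 541 TPM in the deleted libraries. All deleted libraries exceeded WT, but the limma adjusted p of 0.108 missed the threshold (log2 fold change 0.33, SE 0.12). It passed with median-of-ratios scaling (limma adjusted p = 0.0465), without the 4 genes Lyz2, Ftl1, Fth1 and Chil3 (0.0467) and with the Cre lines weighted equally (0.0435).

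Among the 8216 genes, 238 were higher and 915 lower in the deleted libraries (limma, a moderated linear model, on log2(TPM + 1), Benjamini-Hochberg adjusted p below 0.05 over all genes tested), which is 2.9% and 11.1%, against 2.66% and 8.97% of the 11397 genes tested at a mean TPM of at least 1. Of the calls, 118 rises and 179 falls exceeded 1 on the log2 scale, and 35 rises and 26 falls exceeded 2. The groups did not overlap for all 238 higher genes and for 909 of the 915 lower genes. Among all 8216 genes, the 4 deleted libraries lay above all 3 WT libraries in 455 (5.54%) and below them in 2039 (24.8%), against 5.3% and 21.3% of all genes tested. The surplus of falls went with the scale. TPM in a library add up to 1 fixed total, and Ftl1, Fth1 and Chil3 together took 5.06% ± 0.204 (SD, n = 3) of that total in WT and 15.03% ± 1.03 (SD, n = 4) in the deleted libraries. The median gene of the 8216 stood at -0.21 on the log2 scale. With median-of-ratios scaling, which sets a library's scale by its median gene, the median over all tested genes moved from -0.20 to -0.0036, and the calls became 414 higher and 273 lower. All 238 higher genes were called in that fit too, and 273 of the 915 lower genes were. Leaving out 1 library also lowered the counts, to 154 higher without WT replicate 2, and to 395, 360, 602, 421 and 473 lower without WT replicates 1, 2 and 3, Lyz2cre replicate 3 and CD11ccre. The genes described below as having risen or fallen, unless stated otherwise, belong to the 132 higher and 206 lower genes whose call held with each library left out in turn and with median-of-ratios scaling. For a gene list, the number that held stands beside the number called. Adding 1 TPM before the logarithm shrinks the log2 fold change of low genes. Values given as N-fold are ratios of mean TPM.

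**Figure D1:**
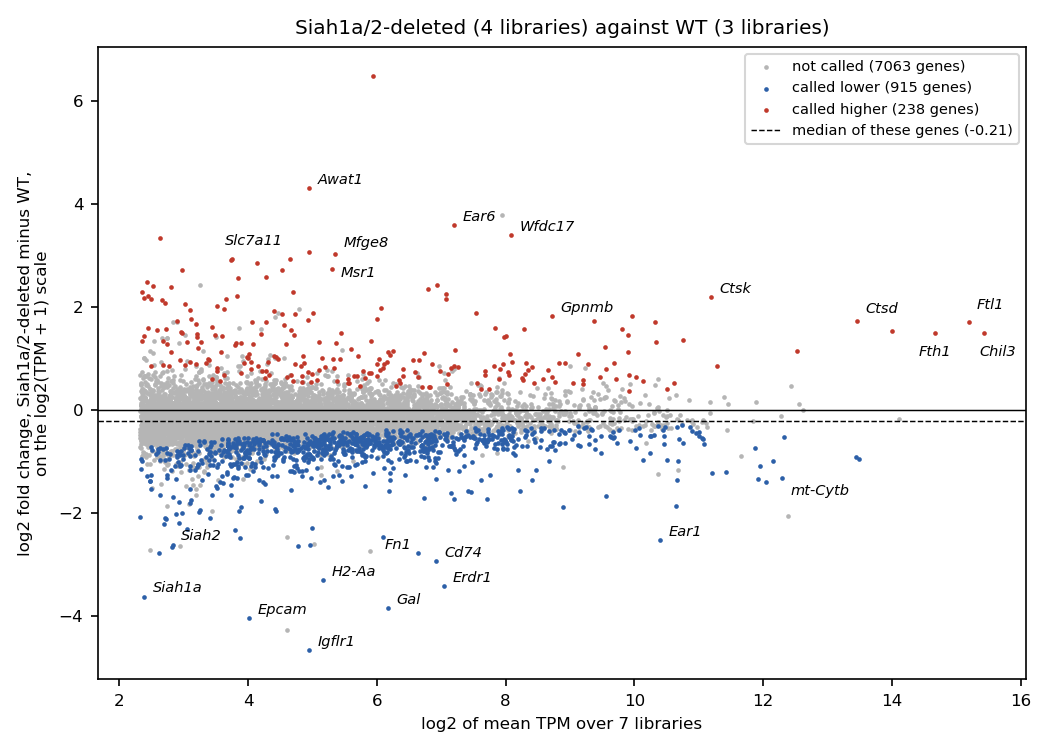
Log2 fold change (deleted minus WT, log2(TPM + 1) scale, vertical axis) against the log2 of mean TPM over the 7 libraries (horizontal axis) for the 8216 genes; red points are the 238 called higher, blue points the 915 called lower, and the dashed line is the median of all points at -0.21. Most blue points lie close to the grey ones, while the named genes stand well apart from them.

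The largest rises belonged to genes of very different roles. Awat1, an enzyme that joins fatty alcohols to acyl chains to make wax esters, was at 0.91, 1.77 and 2.39 TPM in the WT libraries and 36.95, 49.2, 73.1 and 51.8 TPM in the deleted libraries. It rose 31.2-fold, from barely detected in WT to a clear level in every deleted library (log2 fold change 4.32, SE 0.26, limma adjusted p = 6.595e-05). Wfdc17, a small secreted protein with a whey-acidic-protein domain, was at 39.4, 51.7 and 30.9 TPM in the WT libraries and 285, 428, 597 and 468 TPM in the deleted libraries, with no overlap between the groups (log2 fold change 3.40, SE 0.25, limma adjusted p = 0.000167). Syngr1, a membrane protein of small secretory vesicles, ranged over 1.25–2.98 TPM in WT and 13.1–26.2 TPM in the deleted libraries, a log2 fold change of 2.91 (SE 0.29, limma adjusted p = 0.000679). Slc6a8, the creatine transporter, went from 0.85–1.39 TPM to 10.02–17.9 TPM (log2 fold change 2.71, SE 0.24, limma adjusted p = 0.000429). Cxcr1, a receptor for CXC chemokines, went from 27.9–37.99 TPM to 166–212 TPM (log2 fold change 2.44, SE 0.14, limma adjusted p = 6.595e-05). Erich6 (chr3:58616300-58637207) was listed at 0 in 2 WT libraries and at 0.44 TPM in the other, but at 8.67–15.5 TPM in the deleted libraries. It lies on the same chromosome and strand as Siah2, 37731 bases from it.

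**Figure D2:**
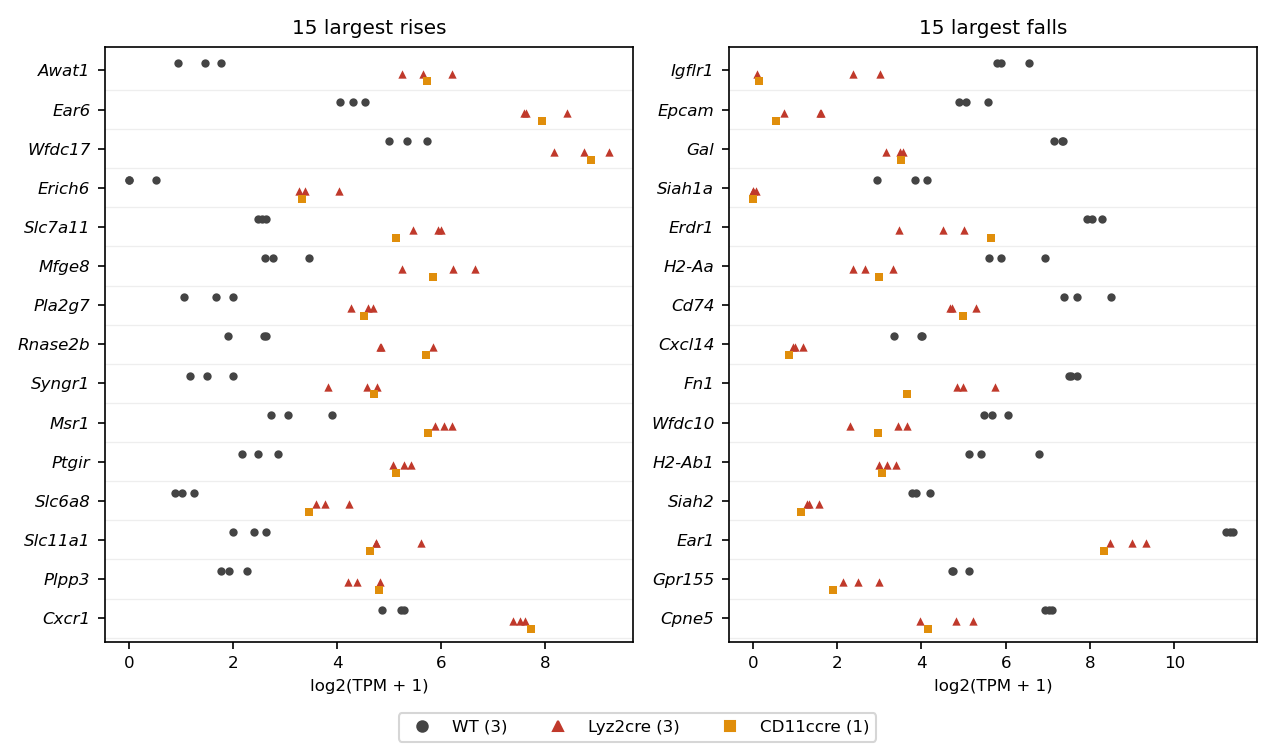
Expression in each library, as log2(TPM + 1) on the horizontal axis, of the protein-coding genes with the 15 largest rises (left) and 15 largest falls (right) among calls that held; circles are WT, triangles Lyz2cre and squares CD11ccre. These 30 genes were chosen among held calls without overlap of the WT and deleted libraries. The separation of the points, the CD11ccre square included, follows from that choice.

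The largest log2 difference of all belonged to a microRNA feature and not to a protein-coding gene. Mir1892, named here after its values were seen, had no TPM in any of the 3 WT libraries, where it was listed at 0. The deleted libraries had 63.9, 137, 189 and 37.7 TPM (log2 fold change 6.49, SE 0.48, limma adjusted p = 0.000167). The feature covers 80 bases (chr12:54645933-54646012, minus strand) and lies inside an untranslated exon part of Sptssa on the same strand. Sptssa itself, a subunit of the enzyme that starts sphingolipid synthesis, was at 74.8, 56.1 and 77.1 TPM in the WT libraries and 81.3, 70.1, 86.6 and 81.1 TPM in the deleted libraries, with overlapping groups and a log2 fold change of 0.21 (SE 0.14, limma adjusted p = 0.368). How reads were assigned between the 2 overlapping features cannot be read from TPM, so the value of Mir1892 is uncertain.

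Both chains of ferritin rose. Ferritin, a shell of light and heavy chains, stores iron in the cytosol. The light chain Ftl1 was at 16567, 17033 and 14935 TPM in the WT libraries and 52007, 60996, 55099 and 45485 TPM in the deleted libraries, all deleted values far above WT (3.3-fold, log2 fold change 1.72, SE 0.11, limma adjusted p = 7.68e-05). With quantile normalization the log2 fold change was 0.79 (limma adjusted p = 0.0575). That setting gives every library the same distribution of values and leaves the most abundant genes little room to rise. The heavy chain Fth1 was at 13142, 12258 and 12884 TPM in the WT libraries and 33681, 38711, 39305 and 32242 TPM in the deleted libraries and did not overlap either (2.82-fold, log2 fold change 1.49, SE 0.10, limma adjusted p = 7.68e-05). Slc11a1, which carries iron and manganese out of the phagosome, was at 5.23, 4.32 and 2.99 TPM in the WT libraries and 47.7, 25.9, 25.9 and 23.7 TPM in the deleted libraries, a 7.37-fold rise with Lyz2cre replicate 1 highest (log2 fold change 2.58, SE 0.27, limma adjusted p = 0.000862). Hmox1, which frees iron from haem, was at 177, 143 and 118 TPM in the WT libraries and 595, 419, 355 and 385 TPM in the deleted libraries. Its lowest deleted library was still 2-fold above its highest WT library (log2 fold change 1.57, SE 0.20, limma adjusted p = 0.00203). Fbxl5, the iron-sensing subunit of a ligase that degrades iron regulatory protein, went from 90.1–104 TPM to 153–205 TPM (log2 fold change 0.82, SE 0.12, limma adjusted p = 0.0047). Blvra, which converts the biliverdin made by Hmox1, moved the other way, from 295–332 TPM to 188–216 TPM (log2 fold change -0.63, SE 0.10, limma adjusted p = 0.00537). Of the 17 iron genes among the members, 6 were called higher and 3 lower, 5 and 1 of which held, and their median of 0.21 compares with -0.21 over all members. With median-of-ratios scaling the counts were 8 and 1. When both ferritin chains, Lyz2 and Chil3 were left out, the median of the other iron genes was 0.0236 against -0.0364 over all genes tested, with 5 higher and 1 lower.

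Of the glutathione and NRF2 genes, the cystine importer and several detoxifying enzymes rose. Slc7a11, the cystine importer that feeds glutathione synthesis, was at 4.57, 5.2 and 4.87 TPM in the WT libraries and 59.95, 43.1, 62.9 and 34.3 TPM in the deleted libraries. The lowest deleted library was several times the highest WT library (10.3-fold, log2 fold change 3.08, SE 0.22, limma adjusted p = 0.0001405). Gstm1, a glutathione transferase, was at 432, 515 and 482 TPM in the WT libraries and 1178, 1279, 1502 and 1285 TPM in the deleted libraries (log2 fold change 1.46, SE 0.11, limma adjusted p = 0.0001935). The groups stood far apart, with little spread inside each. Prdx1, a peroxidase, rose from 1625–1791 TPM to 2893–3461 TPM (log2 fold change 0.86, SE 0.09, limma adjusted p = 0.00098). Gsr, which regenerates glutathione, rose from 141–163 TPM to 252–329.9 TPM (log2 fold change 0.86, SE 0.12, limma adjusted p = 0.00324). Mgst2, a microsomal glutathione transferase, rose from 15.5–18.7 TPM to 33.5–41.6 TPM (log2 fold change 1.05, SE 0.14, limma adjusted p = 0.00232). The factor itself, Nfe2l2, was at 152, 153 and 175 TPM in the WT libraries and 157, 135, 134 and 161 TPM in the deleted libraries, with overlapping groups and a log2 fold change of -0.13 (SE 0.12, limma adjusted p = 0.507). Its inhibitor Keap1 had a log2 fold change of 0.09 (SE 0.24, limma adjusted p = 0.845). The 2 subunits of the rate-limiting glutathione synthesis enzyme did not pass the test either, with log2 fold changes of 0.24 (SE 0.19, limma adjusted p = 0.4395) for Gclc and 0.01 (SE 0.19, limma adjusted p = 0.9795) for Gclm. In all, 6 of the 32 members were called higher (5 held) and 4 lower (none held), with a median of 0.19. That is 18.8% and 12.5%, against 2.9% and 11.1% over all members, so the share of lower calls was near that of all members. With median-of-ratios scaling, 12 were higher and none lower.

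Of 17 lysosomal protease and cystatin members 4 rose and 1 fell, and all 5 calls held. Ctsd, an aspartic protease and the most abundant of them, was at 5397, 4643 and 4470.1 TPM in the WT libraries and 14466, 17004, 17573 and 14947 TPM in the deleted libraries. Every deleted library held at least 2.5 times the highest WT value (3.31-fold, log2 fold change 1.73, SE 0.11, limma adjusted p = 6.595e-05). Ctsk, a collagen-degrading cysteine protease, was at 938, 843 and 559 TPM in the WT libraries and 3499.6, 3465, 4068 and 2987 TPM in the deleted libraries (4.5-fold, log2 fold change 2.19, SE 0.18, limma adjusted p = 0.000291). The WT libraries varied more for Ctsk than for Ctsd, but stayed well below all deleted libraries. Ctsb went from 508–553 TPM to 769.9–908 TPM (log2 fold change 0.64, SE 0.09, limma adjusted p = 0.00368). Its relative Ctsl went from 183–232 TPM to 350.0–466 TPM (log2 fold change 0.90, SE 0.13, limma adjusted p = 0.003865). Ctss, the protease that trims the class II invariant chain, fell, with 5208, 4914 and 4586 TPM in the WT libraries and 3121, 2884, 2931 and 2759 TPM in the deleted libraries (log2 fold change -0.75, SE 0.09, limma adjusted p = 0.00138). With quantile normalization the limma adjusted p was 0.103. The other 12 members were not called.

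Of 36 lysosomal hydrolase and lipid-export members, 5 were called higher (4 held) and 4 lower (1 held). That is 13.9% and 11.1%, against 2.9% and 11.1% over all members. With median-of-ratios scaling 9 were higher and 1 lower. Psap, the precursor of the saposins that present sphingolipids to hydrolases, was at 3853, 4003 and 2669.7 TPM in the WT libraries and 7459.6, 8559, 8557 and 6400.3 TPM in the deleted libraries (2.21-fold, log2 fold change 1.16, SE 0.16, limma adjusted p = 0.00336). Lipa, the acid lipase for cholesterol esters, rose from 264–337 TPM to 489–646 TPM (log2 fold change 0.91, SE 0.13, limma adjusted p = 0.00325). Gaa, which degrades glycogen, rose as well. Gla, which degrades globosides, rose from 37.9–40.6 TPM to 59.3–65.6 TPM (log2 fold change 0.65, SE 0.11, limma adjusted p = 0.00674). Gm2a, the activator needed to degrade ganglioside GM2, fell instead, from 132–154 TPM to 66.04–85.7 TPM (log2 fold change -0.91, SE 0.12, limma adjusted p = 0.00287). Of 22 members for the lysosomal proton pump and the TFEB family, 2 were higher (1 held) and 2 lower (none held). Atp6v0c, a proton pump ring subunit, rose from 867–905 TPM to 1203–1379 TPM (log2 fold change 0.56, SE 0.09, limma adjusted p = 0.00493). The autophagy receptor Sqstm1, also a known NRF2 target, went from 366–452 TPM to 705–823 TPM (log2 fold change 0.89, SE 0.11, limma adjusted p = 0.00167). Of 36 autophagy members 3 were called higher (8.33%, 1 held) and none lower, against 2.9% and 11.1% over all members.

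Promoter letters of these genes are shown because lysosomal and antioxidant genes are known for short recognition elements near their starts. RefSeq promoters (GRCm38.p6, the 250 bases before each annotated start) were found for 179 of the 238 higher, 719 of the 915 lower and 6410 of the members. They were searched on both strands for TCACGTGA, the core of the CLEAR element of lysosomal genes, and TGACNNNGC, the core of the antioxidant response element, which can overlap the AP-1 letters TGANTCA. Among the genes named above whose calls held, CLEAR letters stood in Ctsd and Gla, and antioxidant letters in Prdx1, Psap, Ctsd and Cxcr1, which rose, and in Blvra, which fell. The lysosomal and antioxidant ones are printed. The capitals mark the match, the sequences run 5' to 3' on the gene's strand, and a match in capitals may be on the opposite strand.
Ctsd (chr7:142387889-142387956, minus strand): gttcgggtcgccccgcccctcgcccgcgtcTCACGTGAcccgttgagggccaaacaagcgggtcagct
Gla (chrX:134601163-134601230, minus strand): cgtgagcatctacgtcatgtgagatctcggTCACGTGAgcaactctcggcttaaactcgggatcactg
Prdx1 (chr4:116685436-116685504, plus strand): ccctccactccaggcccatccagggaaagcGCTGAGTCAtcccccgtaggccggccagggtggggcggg
Psap (chr10:60277578-60277627, plus strand): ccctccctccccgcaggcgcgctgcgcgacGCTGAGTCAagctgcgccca
Ctsd (chr7:142387851-142387919, minus strand): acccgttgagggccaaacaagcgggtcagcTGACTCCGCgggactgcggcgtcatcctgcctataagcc
In Ctsd the CLEAR match begins 99 bases and the antioxidant match in capitals 62 bases before the annotated start. Ctsd holds another antioxidant match 47 bases before its start, in lower case in the printed stretch, and Gla holds another CLEAR match 228 bases before its start. CLEAR letters stood in 2.23% of the higher genes, 1.25% of the lower genes and 2.01% of all members (4, 9 and 129 genes), against 0.907% of all 27025 genes in the promoter table and 0.785% of its 32851 windows. Antioxidant letters stood in 17.3% of the higher genes, 14.9% of the lower genes and 14.5% of all members, against 11.5% of all genes and 10.2% of all windows. The AP-1 letters stood in 10.6% of the higher genes (19 genes), 6.12% of the lower genes and 5.23% of all members, against 7.82% of all genes. These differences were not tested. The windows of Slc7a11, Ftl1, Fth1, Gstm1 and Mgst2 held neither, and Hmox1, Gsr and Ctsb had no entry. A missing match says only that these letters are not in this stretch. A match is a description of the sequence and no evidence of binding.

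The secreted chitinase-like protein Chil3, among the most abundant transcripts of these cells, was at 23195, 19695 and 22163 TPM in the WT libraries and 58789, 53806, 68856 and 62199.8 TPM in the deleted libraries. It rose 2.81-fold with no overlap (log2 fold change 1.49, SE 0.10, limma adjusted p = 0.0001405). Quantile normalization, which gives every library the same distribution of values, ended that call (log2 fold change -0.055, limma adjusted p = 0.77), as did testing without a filter on low genes. Because that normalization fixes 1 value per rank, a gene near the top rank in every library cannot show much of a rise under it. The eosinophil-associated ribonucleases, a rapidly duplicated mouse family that degrades RNA outside cells, split. Ear6 was at 15.6, 18.8 and 22.3 TPM in the WT libraries and 197, 192, 342 and 244 TPM in the deleted libraries, a 12.9-fold rise (log2 fold change 3.59, SE 0.21, limma adjusted p = 6.595e-05). Rnase2b went from 2.73–5.21 TPM to 27.4–56.4 TPM (log2 fold change 2.93, SE 0.31, limma adjusted p = 0.000925). Ear1 went the other way, at 2400.5, 2574 and 2689 TPM in the WT libraries and 638, 511, 354 and 322 TPM in the deleted libraries, with every deleted library under every WT library (5.6-fold, log2 fold change -2.54, SE 0.22, limma adjusted p = 0.0003685). Ear2 fell from 6224–6929 TPM to 1924–3217 TPM (log2 fold change -1.40, SE 0.16, limma adjusted p = 0.00126). The members are close copies, so reads may have been divided among them by the quantification, which was not tested, and their values are uncertain. Among 10 ribonuclease members 2 were called higher (both held) and 4 lower (2 held).

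Scavenger and lectin receptors, which bind modified lipids, sugars and particles, held many of the rises. Of 24 members 12 were called higher (9 held) and 4 lower (all 4 held), with a median of 0.38. Msr1, the class A scavenger receptor, was at 7.35, 13.9 and 5.67 TPM in the WT libraries and 65.8, 58.3, 73.4 and 52.4 TPM in the deleted libraries. It was low in WT and several times higher in all deleted libraries (6.95-fold, log2 fold change 2.74, SE 0.26, limma adjusted p = 0.000626). Marco, the other class A receptor of the airspaces, was at 479, 594 and 223 TPM in the WT libraries and 1375, 1456, 1417 and 1420.1 TPM in the deleted libraries, very even among the deleted libraries and uneven in WT (log2 fold change 1.83, SE 0.28, limma adjusted p = 0.00466). Olr1, which takes up oxidised lipoprotein, rose from 72.2–109 TPM to 188–207 TPM (log2 fold change 1.17, SE 0.14, limma adjusted p = 0.00177). Cd36, a fatty acid and lipoprotein receptor, rose from 301–331 TPM to 458–553 TPM (log2 fold change 0.64, SE 0.10, limma adjusted p = 0.005375). The endosomal protein Cd68 rose from 751–841 TPM to 1143–1376 TPM (log2 fold change 0.65, SE 0.10, limma adjusted p = 0.004295).

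C-type lectins moved in both directions. Clec4d, an activating receptor, was at 48.99, 42.04 and 35.8 TPM in the WT libraries and 201, 197, 233 and 189 TPM in the deleted libraries (4.85-fold, log2 fold change 2.26, SE 0.14, limma adjusted p = 6.595e-05). Its activating relative Clec4n rose from 512–564 TPM to 968–1131 TPM (log2 fold change 0.92, SE 0.09, limma adjusted p = 0.000794). Clec5a, which signals through the adaptor DAP12, rose from 40.7–47.6 TPM to 86.8–109.9 TPM (log2 fold change 1.06, SE 0.13, limma adjusted p = 0.00167). Clec12a, an inhibitory receptor, fell from 31.8–45.3 TPM to 7.22–12.3 TPM (log2 fold change -1.96, SE 0.20, limma adjusted p = 0.000862). Clec4a2, also inhibitory, fell from 142–191 TPM to 69.3–97.8 TPM (log2 fold change -1.11, SE 0.16, limma adjusted p = 0.00363). Clec4a3 went from 227–228 TPM to 82.6–130.5 TPM (log2 fold change -1.18, SE 0.15, limma adjusted p = 0.00232). Colec12, a collectin-type scavenger receptor, fell from 10.4–14.9 TPM to 1–2.53 TPM (log2 fold change -2.21, SE 0.26, limma adjusted p = 0.00147). Cd300a, an inhibitory receptor for phospholipids of dying cells, rose from 11.4–13.7 TPM to 30.5–37.02 TPM (log2 fold change 1.29, SE 0.14, limma adjusted p = 0.000965).

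Lipid genes moved both ways. Mfge8, the bridge between dying cells and phagocyte integrins, was at 5.15, 9.97 and 5.85 TPM in the WT libraries and 36.9, 74.1, 98.8 and 56.2 TPM in the deleted libraries. Values varied more than 2-fold among the deleted libraries, all of them above WT (9.51-fold, log2 fold change 3.04, SE 0.33, limma adjusted p = 0.000965). The fatty acid binding proteins, which carry lipid in the cytosol, split. Fabp5 rose from 667–733 TPM to 1483–2094 TPM (log2 fold change 1.32, SE 0.12, limma adjusted p = 0.000503). Fabp4 rose from 268–299 TPM to 418–520.0 TPM (log2 fold change 0.78, SE 0.11, limma adjusted p = 0.00324). Fabp1 fell from 693–888 TPM to 163–267 TPM (log2 fold change -1.89, SE 0.18, limma adjusted p = 0.000664). Cidec, a lipid droplet protein, fell from 303–358 TPM to 103–149 TPM (log2 fold change -1.26, SE 0.15, limma adjusted p = 0.001655). The desaturase Scd2 fell from 17.2–20.1 TPM to 4.05–8.7 TPM (log2 fold change -1.40, SE 0.23, limma adjusted p = 0.006665). Pparg, the receptor for which Fabp4, Cd36 and Cidec are known targets, was at 125, 111 and 132 TPM in the WT libraries and 131, 104, 128 and 167 TPM in the deleted libraries, with overlapping groups and a log2 fold change of 0.09 (SE 0.16, limma adjusted p = 0.7375). Of 36 lipid and PPAR members, 5 were called higher (4 held) and 4 lower (3 held). That is 13.9% and 11.1%, against 2.9% and 11.1% over all members, so the share of lower calls was that of all members. With median-of-ratios scaling 10 were higher and 3 lower. Cholesterol synthesis was nearly even, with 1 of 27 members called, Dhcr7 (log2 fold change 0.83, SE 0.14, limma adjusted p = 0.00802).

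Genes of lipid mediators moved both ways as well. Pla2g7, which inactivates platelet-activating factor, was at 2.99, 2.19 and 1.09 TPM in the WT libraries and 24.9, 18.2, 23.04 and 21.9 TPM in the deleted libraries (10.5-fold, log2 fold change 2.94, SE 0.24, limma adjusted p = 0.000291). The groups were far apart. Lpcat2, which makes that factor, rose from 4.75–6.13 TPM to 14.5–19.3 TPM (log2 fold change 1.44, SE 0.18, limma adjusted p = 0.0018). Ptgs1, the constitutive cyclooxygenase, rose from 5.07–8.84 TPM to 15.2–32.6 TPM (log2 fold change 1.71, SE 0.27, limma adjusted p = 0.0055). Hpgds, a prostaglandin D synthase, rose from 3.94–5.21 TPM to 11.5–18.6 TPM (log2 fold change 1.61, SE 0.20, limma adjusted p = 0.00205). Ptgir, the prostacyclin receptor, was at 6.31, 3.52 and 4.61 TPM in the WT libraries and 32.8, 38.2, 41.6 and 33.9 TPM in the deleted libraries (7.61-fold, log2 fold change 2.72, SE 0.19, limma adjusted p = 0.0001405). Alox5ap, which presents arachidonic acid for leukotriene synthesis, fell from 1446–1760.4 TPM to 764–1020.1 TPM (log2 fold change -0.84, SE 0.13, limma adjusted p = 0.00479). Cyp4f18, which breaks leukotriene B4 down, fell from 117–148 TPM to 43.8–61.8 TPM (log2 fold change -1.26, SE 0.15, limma adjusted p = 0.00145). Over the 17 members 4 were higher (all held) and 5 lower (2 held, Alox5ap and Cyp4f18). The other 3 lower calls were Alox5, Ltc4s and Ptger4. The lower count was 3 without WT replicate 1, WT replicate 3 or CD11ccre and 2 without WT replicate 2 or Lyz2cre replicate 3. Plpp3, a phosphatase of lysophosphatidic acid, rose from 2.41–3.82 TPM to 17.6–27.5 TPM (log2 fold change 2.57, SE 0.21, limma adjusted p = 0.000327).

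Among chemokines, Ccl6 was at 7891, 7337 and 8407 TPM in the WT libraries and 19827, 20483, 25643 and 25204 TPM in the deleted libraries. This CC chemokine was abundant in WT and rose in every deleted library (2.89-fold, log2 fold change 1.52, SE 0.12, limma adjusted p = 0.000198). Cxcl14, a chemokine of epithelia and resident tissue cells, was at 15.02, 14.9 and 9.11 TPM in the WT libraries and 1.29, 1.01, 0.93 and 0.81 TPM in the deleted libraries, where it was close to 1 TPM throughout (12.9-fold, log2 fold change -2.78, SE 0.25, limma adjusted p = 0.000487). Of 12 chemokine members 4 were called higher (1 held) and 1 lower (held), with 2 higher when WT replicate 2 was left out. Of 20 members for inflammatory cytokines and the inflammasome 4 were higher (3 held) and 3 lower (1 held); the held calls were Ptgs1, Pla2g7, Hpgds and Alox5ap, given above. Of 24 chemokine and cytokine receptor members 2 were higher and 5 lower, none of which held. The calls on 2 other lists were 1 of 28 members for toll-like receptors and NF-kappaB higher and 3 lower, and 1 of 23 interferon-inducible members higher and 2 lower, of which 1, Ly86, held. Shares of higher and lower calls were 3.57% and 10.7% on the toll-like receptor list and 4.35% and 8.7% on the interferon list. Both pairs were near the 2.9% and 11.1% over all members. Higher calls exceeded that background share on the chemokine, cytokine and receptor lists, and lower calls on the cytokine and receptor lists only.

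Genes that mark lipid-laden and profibrotic macrophages formed the list with the largest share of rises, 11 of 20 members (55.0%, all of them held), with 3 lower (1 held) and a median of 0.77. Of the 11, Ctsb, Ctsd, Ctsk and Ctsl are the proteases given above, and Fabp5 and Cd63 stand on other lists too. The list was drawn up with earlier results of these libraries known and is no independent evidence of its direction. Gpnmb, a membrane glycoprotein of lysosomes, was at 187, 167 and 162 TPM in the WT libraries and 586, 587, 675 and 590.4 TPM in the deleted libraries. The deleted libraries lay close together at more than 3-fold the WT values (log2 fold change 1.82, SE 0.10, limma adjusted p = 6.595e-05). Spp1, the secreted matrix protein osteopontin, was at 412, 710.2 and 564 TPM in the WT libraries and 1809, 1799, 2209 and 1456 TPM in the deleted libraries, every deleted library more than 2-fold above the highest WT library (log2 fold change 1.71, SE 0.19, limma adjusted p = 0.00129). Igf1, a growth factor, was at 35.3, 35.3 and 24.6 TPM in the WT libraries and 127, 134, 189 and 229 TPM in the deleted libraries, highest in CD11ccre (5.34-fold, log2 fold change 2.35, SE 0.23, limma adjusted p = 0.000664). Trem2, a lipid-sensing receptor, rose from 56.8–69.99 TPM to 109.9–165 TPM (log2 fold change 1.10, SE 0.15, limma adjusted p = 0.00342). Mmp12, macrophage elastase, rose from 4.17–7.13 TPM to 12.5–19.5 TPM (log2 fold change 1.46, SE 0.22, limma adjusted p = 0.00479). Fibronectin, Fn1, ran against its list: 181, 206 and 185 TPM in the WT libraries and 52.6, 27.5, 30.6 and 11.6 TPM in the deleted libraries, lowest in CD11ccre (6.23-fold lower, log2 fold change -2.77, SE 0.39, limma adjusted p = 0.00353). The tetraspanins, membrane organisers of endosomes and exosomes, rose in 3 of 13 members and fell in none, and all 3 calls held. Cd63 went from 263–533 TPM to 1089–1400.1 TPM (log2 fold change 1.57, SE 0.23, limma adjusted p = 0.0041). Cd81 went from 129–169 TPM to 239–252 TPM (log2 fold change 0.68, SE 0.11, limma adjusted p = 0.00742). Tspan4 went from 6.25–12.7 TPM to 18.8–27.1 TPM (log2 fold change 1.28, SE 0.23, limma adjusted p = 0.0103).

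**Figure D3:**
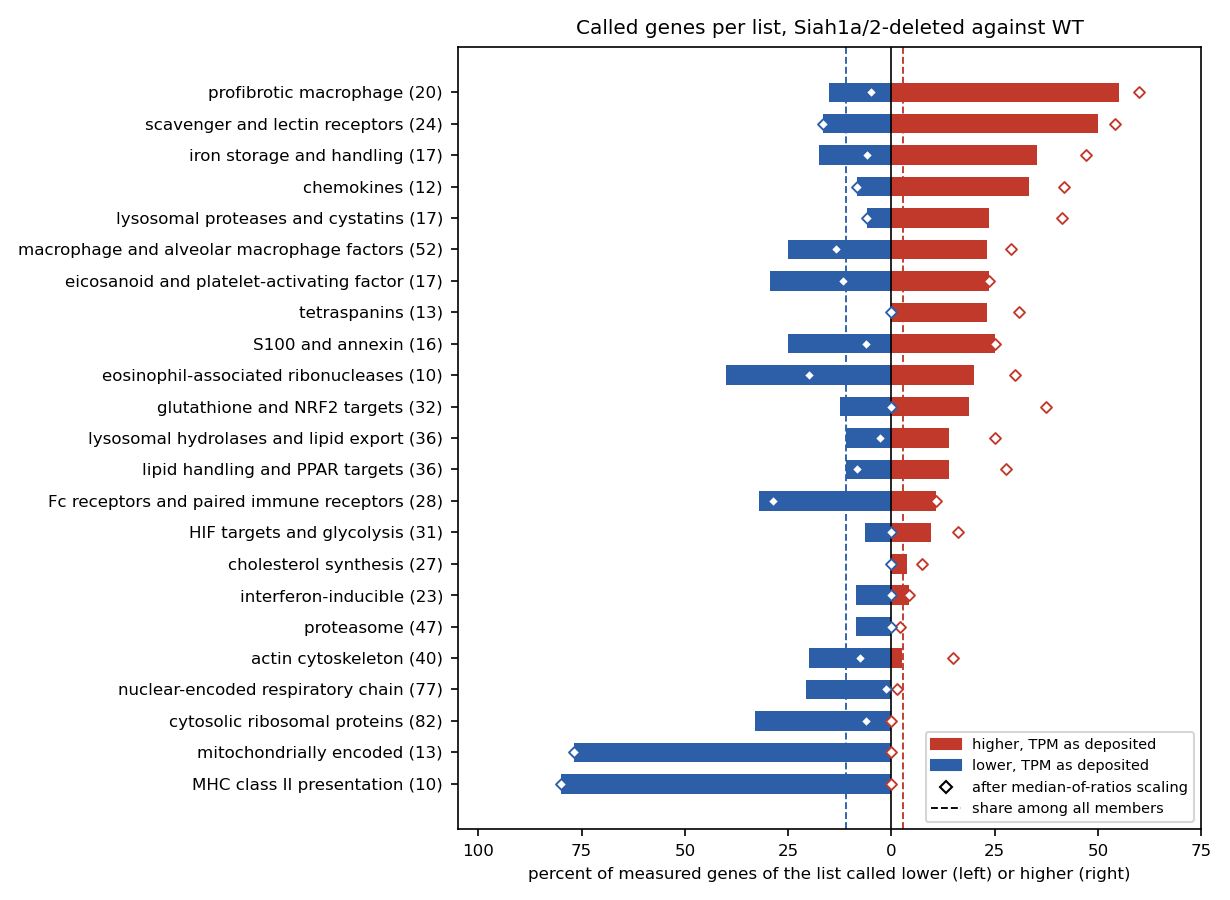
Percent of each list's members called higher (red, right) or lower (blue, left), with the number of members in brackets; diamonds give the same after median-of-ratios scaling and dashed lines the shares among all 8216 genes (2.9% higher, 11.1% lower). The profibrotic list reaches 55.0% higher and MHC class II 80.0% lower under the deposited scale, and the diamonds of ribosomal and nuclear respiratory genes fall back towards 0.

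Genes of MHC class II presentation fell as a group. Class II molecules carry peptides from the lysosome to CD4 T cells. They assemble on the invariant chain Cd74, which Ctss trims and whose remnant the H2-DM proteins exchange for peptide. Of 10 members 8 were lower and none higher, all 8 calls held, and the list's median was -1.80. Cd74 was at 361, 165 and 205 TPM in the WT libraries and 38.05, 25.5, 24.6 and 30.6 TPM in the deleted libraries. WT replicate 1 was highest, but even the lowest WT library was more than 4-fold above every deleted library (log2 fold change -2.94, SE 0.26, limma adjusted p = 0.000451). H2-Aa, the alpha chain of I-A, was at 120.4, 47.8 and 58.3 TPM in the WT libraries and 9.03, 5.34, 4.22 and 6.99 TPM in the deleted libraries (11.8-fold lower, log2 fold change -3.30, SE 0.33, limma adjusted p = 0.000771). Its partner H2-Ab1 was at 109, 41.6 and 34.1 TPM in the WT libraries and 9.58, 8.09, 6.97 and 7.36 TPM in the deleted libraries, again with WT replicate 1 highest and no overlap (log2 fold change -2.62, SE 0.35, limma adjusted p = 0.0027). H2-Eb1, the beta chain of I-E, went from 20.7–35.6 TPM to 2.84–5.93 TPM (log2 fold change -2.33, SE 0.27, limma adjusted p = 0.00145).

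The peptide exchange genes fell too. H2-DMa went from 287–399.8 TPM to 73.7–131 TPM (log2 fold change -1.73, SE 0.22, limma adjusted p = 0.00203). H2-DMb1 went from 101–125 TPM to 39.99–50.2 TPM (log2 fold change -1.35, SE 0.13, limma adjusted p = 0.000596). H2-DMb2 went from 20.4–28.9 TPM to 4.18–10.1 TPM (log2 fold change -1.88, SE 0.26, limma adjusted p = 0.00325). Ifi30, the lysosomal thiol reductase, did not pass the test, with a log2 fold change of -0.10 (SE 0.10, limma adjusted p = 0.559). Class I presents cytosolic peptides. Of its 19 members 1 was called higher (Calr, which did not hold) and none lower, and its light chain B2m had a log2 fold change of 0.15 (SE 0.12, limma adjusted p = 0.458). Markers of other cells that bear class II moved as follows. Summed B and plasma cell markers were 6.96–20.4 TPM in WT and 0.78–2.76 TPM in the deleted libraries, with WT replicate 3 highest. Igkc made up most of it, at 4.59–15.1 and 0–1.18 TPM. Dendritic cell markers summed to 131–136 and 151–197 TPM, and Flt3 was listed at 0 in every WT library. Cd24a, with values given under Other observations, made up most of that sum in both groups. The median of the 4 members on this list was -0.43. On that list Cd24a was called higher and Batf3 lower, the latter without holding. The monocyte receptor Ccr2, whose mean was below the limit of 5 TPM, was at 2.98–6.85 TPM in WT and 0.58–0.91 TPM in the deleted libraries. None of the 3 members on the monocyte list was called, and their median was -0.05. The part of such cells in the class II values was not tested.

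Class II promoters are known for an X box followed at a fixed distance by a Y box, so their letters are shown. The letters TGATTGG (a Y box on the gene's strand) and GATGATG (in the X box region), the latter read off these windows after the calls were known, are in capitals in the sequences from RefSeq (GRCm38.p6), written 5' to 3' on the gene's strand.
H2-Aa (chr17:34287859-34287918, minus strand): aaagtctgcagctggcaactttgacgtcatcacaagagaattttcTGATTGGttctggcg
H2-Eb1 (chr17:34305761-34305820, plus strand): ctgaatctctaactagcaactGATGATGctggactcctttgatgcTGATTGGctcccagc
H2-DMb1 (chr17:34153083-34153142, plus strand): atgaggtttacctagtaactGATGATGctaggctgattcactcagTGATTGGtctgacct
H2-DMb2 (chr17:34145112-34145171, plus strand): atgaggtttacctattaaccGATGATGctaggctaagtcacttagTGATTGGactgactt
The Y box letters began 50 bases before the annotated start in H2-Aa, 61 in H2-Eb1, 63 in H2-DMb1 and 92 in H2-DMb2. H2-Eb1, H2-DMb1 and H2-DMb2 also held GATGATG, with 17, 18 and 18 bases between the 2 elements, and the 2 windows of H2-DMa held neither. H2-Ab1 and Cd74 had no entry. TGATTGG alone stood on either strand in 7.23% of all 32851 windows of this length and in 11.7% of the 6410 member genes with a promoter. Both elements in this order, 10 to 25 bases apart, stood in 8 windows (0.0244%), all of them of member genes. These were the 3 class II genes named and Clasp2, Hnrnph2, Tmsb15b1, Tmsb15b2 and Tmsb15l, none of which was called.

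Several other immune receptors fell. Of 28 Fc and paired receptor members 9 were lower (4 held) and 3 higher (2 held), with 5 lower without WT replicate 2 or WT replicate 3. Fcgr2b, the inhibitory Fc receptor for IgG, was at 255, 223 and 250.5 TPM in the WT libraries and 92.3, 67.9, 92.8 and 47.6 TPM in the deleted libraries (3.23-fold lower, log2 fold change -1.73, SE 0.22, limma adjusted p = 0.00224). No deleted library came near WT. Fcgr1, the high-affinity activating receptor, fell from 47.1–65.4 TPM to 15.8–25.6 TPM (log2 fold change -1.36, SE 0.19, limma adjusted p = 0.00314). Siglecf, an inhibitory sialic acid receptor, was at 226, 211 and 256 TPM in the WT libraries and 107, 81.3, 65.5 and 53.9 TPM in the deleted libraries, with no overlap (3.01-fold lower, log2 fold change -1.62, SE 0.21, limma adjusted p = 0.00247). SiglecF is named as a surface marker in the WT labels only. Cfp, the properdin that stabilises the alternative complement pathway, fell from 108–135 TPM to 31.7–45.7 TPM (log2 fold change -1.58, SE 0.15, limma adjusted p = 0.000675). C1ra, a protease of the classical pathway, fell from 17.9–18.8 TPM to 8.08–10.3 TPM (log2 fold change -0.91, SE 0.15, limma adjusted p = 0.00599). Ly86, a partner of the toll-like receptor homologue Cd180, had a log2 fold change of -1.12 (SE 0.17, limma adjusted p = 0.004295).

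The largest falls outside class II were spread over unrelated roles. Gal, the neuropeptide galanin, was at 164, 161 and 141 TPM in the WT libraries and 10.3, 10.7, 7.96 and 10.5 TPM in the deleted libraries. It had the smallest adjusted p of all genes tested and a tight spread in both groups (15.8-fold lower, log2 fold change -3.85, SE 0.14, limma adjusted p = 6.31e-06). Epcam, an epithelial adhesion molecule that alveolar macrophages also express, was at 46.9, 28.4 and 32.3 TPM in the WT libraries and 2.08, 1.99, 0.67 and 0.46 TPM in the deleted libraries (27.6-fold lower, log2 fold change -4.05, SE 0.32, limma adjusted p = 0.000281). Every deleted library was near or below 2 TPM. Igflr1, a receptor of the tumour necrosis factor receptor family, was at 92.8, 54.04 and 58.3 TPM in the WT libraries and 7.02, 4.15, 0.07 and 0.11 TPM in the deleted libraries, with a wide spread among the deleted libraries but none near WT (log2 fold change -4.67, SE 0.69, limma adjusted p = 0.004295). Erdr1 went from 242–308 TPM to 10.03–49.5 TPM (log2 fold change -3.42, SE 0.42, limma adjusted p = 0.00195). Gpr155 went from 25.3–33.9 TPM to 2.74–6.94 TPM (log2 fold change -2.48, SE 0.26, limma adjusted p = 0.000934). Cpne5, a calcium-dependent membrane-binding protein, went from 120.2–136 TPM to 14.6–36.6 TPM (log2 fold change -2.47, SE 0.28, limma adjusted p = 0.001325). Lyz1 fell from 43.2–76.9 TPM to 8.22–14.1 TPM (log2 fold change -2.29, SE 0.24, limma adjusted p = 0.000905). It neighbours and closely resembles Lyz2, yet stayed at 9.39 TPM in the CD11ccre library, where Lyz2 took 5.07% of all TPM. Lyz2 took 0.0073% to 0.0086% in the WT libraries and 0.0047% to 0.0062% in the Lyz2cre libraries. Why the libraries differ in Lyz2 was not tested. The whey-acidic-protein gene Wfdc10 fell from 44.01–64.9 TPM to 3.96–11.7 TPM (log2 fold change -2.64, SE 0.31, limma adjusted p = 0.00145), opposite to Wfdc17 and to Wfdc21, which rose from 481–662 TPM to 1030.0–1415 TPM (log2 fold change 1.13, SE 0.15, limma adjusted p = 0.002415).

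Alveolar macrophage genes changed in both directions. Of 52 members for macrophage and alveolar macrophage factors, 12 were higher (9 held) and 13 lower (6 held), and the median was -0.10. Without WT replicate 1 the lower count was 8. Car4, a carbonic anhydrase typical of these cells, was at 737, 1123 and 897 TPM in the WT libraries and 2278, 2184, 2597 and 2313 TPM in the deleted libraries (2.55-fold higher, log2 fold change 1.37, SE 0.14, limma adjusted p = 0.000861). It did not overlap between groups. The zinc importer Slc39a2 rose from 66.5–80.7 TPM to 205–326 TPM (log2 fold change 1.89, SE 0.16, limma adjusted p = 0.000342), beside Marco, Chil3, Fabp4, Fabp5, Ctsk, Cd63 and Olr1, while Siglecf, Ear1, Ear2, Epcam, Fabp1 and Cidec fell. The GM-CSF receptor chain Csf2ra was at 245, 248 and 163 TPM in the WT libraries and 205, 257, 188 and 154 TPM in the deleted libraries, with overlapping groups and a log2 fold change of -0.12 (SE 0.20, limma adjusted p = 0.743). Adgre1, which encodes F4/80, had a log2 fold change of -0.36 (SE 0.14, limma adjusted p = 0.131).

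Transcripts of the mitochondrial genome fell together. This genome encodes 13 subunits of the respiratory chain, and 10 of the 13 were lower, 7 of which held, with none higher and a median of -1.23. Together they took 8.22% ± 0.762 of TPM in WT (SD, n = 3) and 3.75% ± 0.83 in the deleted libraries (SD, n = 4). mt-Cytb, of complex III, was at 6974, 8016 and 7825 TPM in the WT libraries and 3627, 2208, 3177 and 3334 TPM in the deleted libraries (2.46-fold lower, log2 fold change -1.32, SE 0.16, limma adjusted p = 0.00176). All 4 deleted libraries were below WT, with Lyz2cre replicate 2 lowest. mt-Nd5, of complex I, was at 2057, 2808 and 2579 TPM in the WT libraries and 1202, 678, 1019 and 989.7 TPM in the deleted libraries (log2 fold change -1.37, SE 0.19, limma adjusted p = 0.00324). mt-Co2, of complex IV, went from 13549.6–16069 TPM to 6552–9164 TPM (log2 fold change -0.92, SE 0.13, limma adjusted p = 0.00374), and had a limma adjusted p of 0.0727 when genes were not filtered by level. The 3 that did not pass were mt-Nd3, mt-Atp6 and mt-Co3, of which mt-Co3 ran from 137–3738 TPM within the WT libraries. Several of these genes overlap by a few bases on the circular genome. With median-of-ratios scaling the same count of 10 was lower. Of 77 nuclear genes of the respiratory chain 16 were lower and none higher under the deposited scale, with a median of -0.28, but 1 was higher and 1 lower after median-of-ratios scaling. Without WT replicates 1, 2 and 3, Lyz2cre replicates 1 and 3 and CD11ccre, in turn, the lower count was 3, 1, 7, 5, 3 and 3. Uqcrh, a complex III subunit, was the 1 that held and went from 493–551 TPM to 328–378 TPM (log2 fold change -0.62, SE 0.09, limma adjusted p = 0.004855).

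Calls of ribosomal proteins depended on the scale. Of 82 cytosolic ribosomal members 27 were lower and none higher (median -0.32), but 5 were lower after median-of-ratios scaling and 4 held. Leaving out 1 library gave between 9 (without WT replicate 2) and 33 (without Lyz2cre replicate 2) lower. The counts were 15 and 16 without WT replicates 1 and 3, 17 and 15 without Lyz2cre replicates 1 and 3, and 12 without CD11ccre. The 4 were Rpl5 (log2 fold change -0.88, SE 0.14, limma adjusted p = 0.00479), Rpl10a (log2 fold change -0.79, SE 0.14, limma adjusted p = 0.009905), Rpl17 (log2 fold change -0.66, SE 0.10, limma adjusted p = 0.00481) and Rpl22l1 (log2 fold change -0.68, SE 0.09, limma adjusted p = 0.00324). Ribosomal protein genes have many processed copies that can share their reads. Of 40 actin regulators 8 were lower (3 held) and 1 was higher (held), with 5 lower without WT replicate 1. Coro1a, a coat protein of cortical actin in leukocytes, was at 507, 508 and 429 TPM in the WT libraries and 203, 163, 125 and 157 TPM in the deleted libraries, with every deleted library below 0.5 of the lowest WT value (2.97-fold lower, log2 fold change -1.58, SE 0.16, limma adjusted p = 0.000773). Lsp1, an actin-binding protein of leukocytes, had a log2 fold change of -0.96 (SE 0.13, limma adjusted p = 0.00321), and Arpc5, of the actin-branching complex, had -0.69 (SE 0.09, limma adjusted p = 0.00219). The vesicle motor Myo5a rose from 19.2–23.8 TPM to 47.3–60.6 TPM (log2 fold change 1.31, SE 0.14, limma adjusted p = 0.000934).

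**Figure D4:**
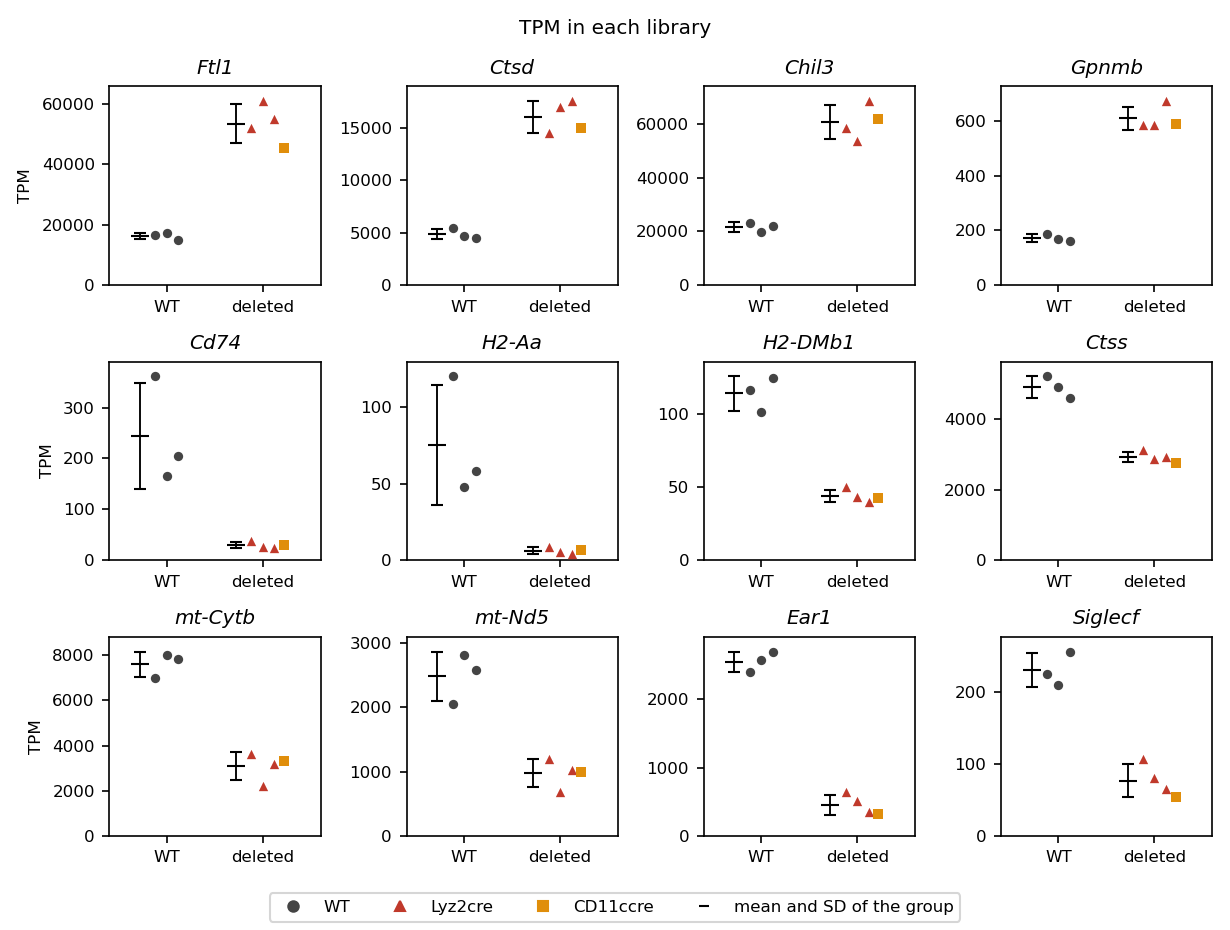
TPM of 12 genes in each library (vertical axes start at 0); circles are the 3 WT libraries, triangles the 3 Lyz2cre libraries, squares the CD11ccre library, and bars give the mean and SD of each pooled group. Ftl1, Ctsd, Chil3 and Gpnmb were higher in all 4 deleted libraries than in any WT library, and the other 8 genes lower, with WT replicate 1 apart from the other WT libraries for Cd74 and H2-Aa.

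The pathways closest to the ligases held few lower calls, while the HIF list held more higher calls than the share over all members. Of 12 members of the list of Siah substrates and prolyl hydroxylases, 1 was called, the nuclear co-repressor Ncor1, at 87.98, 78.98 and 102 TPM in the WT libraries and 44.9, 53.8, 54.1 and 55.9 TPM in the deleted libraries. Its groups did not overlap, but the call (log2 fold change -0.77, SE 0.13, limma adjusted p = 0.0088) ended with median-of-ratios scaling (adjusted p = 0.0551). The prolyl hydroxylases Egln1 and Egln2, which mark Hif1a for degradation, had log2 fold changes of -0.20 (SE 0.13, limma adjusted p = 0.356) and 0.62 (SE 0.22, limma adjusted p = 0.106), and Hif1a had -0.07 (SE 0.16, limma adjusted p = 0.8205). Its relative Epas1 rose from 7.19–10.9 TPM to 26.3–44.3 TPM (log2 fold change 1.86, SE 0.21, limma adjusted p = 0.00138). Of 31 members for HIF targets and glycolysis, 3 were higher (1 held) and 2 lower (none held). That is 9.68% and 6.45%, against 2.9% and 11.1% over all members. With median-of-ratios scaling 5 were higher and none lower. For other lists the share of lower calls was near or below that over all members, or the lower calls were lost with median-of-ratios scaling. They were proteasome subunits (0 higher and 4 lower of 47), chaperones (1 and 2 of 30), ATF4 and unfolded protein response (2 and 2 of 32), cell cycle (0 and 6 of 45) and ubiquitin-conjugating enzymes (0 and 6 of 36). Under median-of-ratios scaling the lower counts of these became 0, except for 2 of the cell cycle genes, Cks2 (log2 fold change -1.22, SE 0.17, limma adjusted p = 0.00314) and H2afz (log2 fold change -0.66, SE 0.10, limma adjusted p = 0.004305). Higher calls on the ATF4 list, at 6.25%, were above the 2.9% over all members and numbered 3 with median-of-ratios scaling.

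Pooling joined 2 Cre lines, 1 of them with a single library, which limits what a comparison between them can call. In a fit with 3 group means, 1 of the 8216 genes was higher in CD11ccre than in Lyz2cre (0.0122%) and 5 were lower (0.0609%), against 0.0439% and 0.0702% of all genes tested. The single CD11ccre library is assumed there to vary like the other groups. The higher feature, Mir1902, was listed at 46.6 TPM in CD11ccre and at 0 elsewhere. S100a4, a calcium-binding protein of motile cells, had 18.5, 23.1 and 9.16 TPM in the WT libraries, 19.6, 20.1 and 12.8 TPM in Lyz2cre, and was listed at 0 in CD11ccre. The other 4 were pseudogene copies of Rpl35a with identical values. Without any 1 of the 3 Lyz2cre libraries none of the 6 was called, and without WT replicates 2 and 3 the counts were 1 and 2. Both lines are set against the same WT libraries, so their separate differences are not independent. On the log2 scale, Lyz2cre and CD11ccre each minus WT gave 1.79 and 1.49 for Ftl1 and 3.24 and 2.59 for Slc7a11. They gave 1.83 and 1.78 for Gpnmb and -2.96 and -2.87 for Cd74, -3.88 and -3.77 for Gal and -2.39 and -3.92 for Fn1, the last of these being the widest apart. Without the CD11ccre library the class II list kept 8 lower members, the profibrotic list 11 higher and the scavenger and lectin list 10 higher.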

How the data were processed

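RNA-seq libraries of alveolar macrophages (3 WT, 3 Lyz2cre, 1 CD11ccre, grouped by their titles) were made from poly(A) RNA with strand-specific kits and read from 1 end, per the labels' protocols. The authors deposited TPM per gene; RSEM 1.3.1, STAR 2.7.0d, cutadapt 2.3 and mm10 are named in the submitters' processing notes, and the annotation is not given in the sources used here. Depth is unknown, and with TPM a gain in a few abundant genes lowers all others. The values were fitted as log2(TPM + 1) with limma 3.58.1 (R 4.3.3, mean-variance trend, 2 group means, all 7 libraries). The Benjamini-Hochberg adjustment ran over 11397 genes of mean TPM at least 1, at a threshold of 0.05, and the script was tested on simulated data. Scaling, filters, the pseudocount, the fit and single libraries were varied. Members and gene lists were chosen with earlier results of these data known. Genes were named as the 15 largest rises and falls that held without overlap of the groups. Those with the largest TPM differences under the same conditions were also named, and up to 4 per list by p. Further list members, such as Gsr, Ctsl, Gla, Marco, Cd36, Spp1, Igf1 and H2-Eb1, and Mir1892 were chosen after their values were seen. Of 156 genes checked for position (GENCODE M21, matching 47224 of 47643 IDs), 34 overlap another gene on their strand, so their reads may be shared. Promoters came from RefSeq (GRCm38.p6). Figures were drawn with Python 3.11.15 and matplotlib 3.10.9.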

Additional observations from a re-analysis of the deposited data

Results flagged for a closer look

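In 10 of 154 genes checked, 1 of the 4 deleted libraries stood apart from the other 3 by a gap large against the group's range (Dixon's test at the 95% level), which chance alone gives in about 1 of 20 groups. Lyz2cre replicate 1 was the highest deleted library for Slc11a1 (47.72 TPM), Erich6 (15.5 TPM) and Adgre1 (110.97 TPM) and the lowest for Fabp4 (418.34 TPM). Lyz2cre replicate 3 was highest for Gpnmb (674.56 TPM) and lowest for Cidec (102.84 TPM) and Gal (7.96 TPM), and was the deleted library with Siah1a above 0 (0.05 TPM). CD11ccre was highest for Itgax (541.27 TPM), and Lyz2cre replicate 2 lowest for mt-Nd3 (424.07 TPM).

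The 2 Cre lines differed in 6 member genes and in Lyz2, by limma with adjusted p-values in a fit that takes the spread of the lone CD11ccre library from the other groups. The log2 difference, CD11ccre minus Lyz2cre, was 9.84 for Lyz2 (limma adjusted p = 1.31e-06) and 5.57 for Mir1902 (0.0216), which was listed at 0 in the other 6 libraries. It was -4.18 for S100a4 (limma adjusted p = 0.0391) and -3.32 for each of Rpl35a-ps2, Rpl35a-ps3, Rpl35a-ps4 and Rpl35a-ps6 (limma adjusted p = 0.0391). These 4 pseudogene copies carried identical values in every library.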

How the results depend on the processing

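The counts of calls depended on the scale. The 238 higher and 915 lower genes became 414 and 273 with median-of-ratios scaling, 373 and 298 with quantile normalization, and 301 lower without Lyz2, Ftl1, Fth1 and Chil3; higher calls were 60.26%, 55.59% and 53.55% of all calls in these fits, against 20.64%. The lower count was also 544 without a filter on low values and 490 without the trend. Leaving out 1 library gave 154 to 201 higher and 360 to 651 lower. Genes without overlap numbered 1082 higher and 896 lower with median-of-ratios scaling, and 511 to 730 higher and 2202 to 2899 lower with a library left out. The 6 genes differing between Cre lines became 1 with a pseudocount of 5 or without the trend, 10 without the filter, and 0 to 6 with a library left out.

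Deviations from the group means had correlations of -0.0149, 0.0431 and 0.0656 between same-numbered WT and Lyz2cre libraries. Between differently numbered ones they ran from -0.0975 to 0.0599. These values cannot decide whether the numbers pair the libraries, because deviations from a mean of 3 libraries are bound to sum to 0. With the replicate block, 201 genes were higher and 561 lower. Of 134 genes named and called, 120 kept the call in every alternative. The exceptions were Ftl1, Ctss, mt-Atp8 and Chil3 (quantile normalization; Chil3 also turned direction, at -0.055), Chil3 and mt-Co2 (no filter), Ncor1 (median-of-ratios scaling and quantile normalization), Pdpn, Tppp3, and, under 3 or more settings each, S100a9, Vwf, Napsa, Batf3, Csf3r and Mmp8. Of 20 named genes not called, 5 gained a call: Itgax (median-of-ratios scaling, without the abundant genes, Cre lines weighted equally), B2m (quantile normalization), mt-Nd3 and mt-Atp6 (without Lyz2cre replicate 2, and mt-Nd3 with the replicate block) and S100a4 (Cre lines weighted equally). The cause was not tested. The mean TPM differences of Siah1a and Siah2 kept their direction throughout. Depth is unknown, so no counting limit can be given for low genes.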

Other observations

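Calcium-binding S100 proteins and annexins, which bind membranes in a calcium-dependent way, moved in both directions, with 4 of 16 members called higher (all held) and 4 lower (1 held). S100a1 was at 407, 435 and 424 TPM in the WT libraries and 869.7, 1083, 1107 and 904 TPM in the deleted libraries, without overlap (log2 fold change 1.22, SE 0.11, limma adjusted p = 0.0005055). Anxa1, a lipid-binding protein that limits inflammation, went from 504–545 TPM to 835–969.7 TPM (log2 fold change 0.79, SE 0.09, limma adjusted p = 0.00145). S100a8 and S100a9 encode the 2 chains of calprotectin. S100a8 went from 15.6–32.9 TPM to 80.9–127 TPM (log2 fold change 1.99, SE 0.25, limma adjusted p = 0.00189), whereas S100a9 was at 37.9, 10.7 and 10.8 TPM in the WT libraries and 6.9, 5.14, 1.16 and 1.62 TPM in the deleted libraries and its call did not hold. Cd24a, a small surface glycoprotein, went from 92.5–107 TPM to 138–185 TPM (log2 fold change 0.70, SE 0.13, limma adjusted p = 0.00993).

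Of 32 immediate-early members 1 was higher and 3 lower. These shares, 3.1% and 9.4%, were near the 2.9% and 11.1% over all members. Ier3, an early-response gene linked to cell survival, was at 22.2, 25.6 and 14.7 TPM in the WT libraries and 65.1, 73.3, 60.4 and 41.9 TPM in the deleted libraries, with no overlap (log2 fold change 1.49, SE 0.23, limma adjusted p = 0.00528). Dusp6, a phosphatase that limits ERK signalling, was at 20.1, 15.7 and 19.8 TPM in the WT libraries and 9.98, 6.72, 6.98 and 4.91 TPM in the deleted libraries, again with no overlap but in the other direction (log2 fold change -1.29, SE 0.22, limma adjusted p = 0.008595). Solute carriers, a broad class of membrane transporters, had 10 of 129 members higher (5 held) and 13 lower (3 held). That is 7.75% and 10.1%, against 2.9% and 11.1% over all members, so the share of lower calls was near that of all members. The rises of Slc6a8, Slc7a11, Slc11a1 and Slc39a2 given above are among them. RING-type ligase genes other than the targets, named Rnf or Trim, had 1 of 81 members higher (none held) and 6 lower (1 held). These shares, 1.23% and 7.41%, were both below those over all members.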
